A study of Homo sapiens with 4 samples.

Results

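Hepatocyte lineage transcription factors are described here in HepG2 cells, a human liver cancer cell line. Of 8 named genes (HNF4A, FOXA1, FOXA2, FOXA3, CEBPA, ONECUT1, NR5A2 and PROX1), 7 were read, by 16 of the 54675 probe sets of the U133 Plus 2.0 array of Affymetrix. A probe set was taken where its annotation gave exactly 1 gene symbol and that symbol was one of the 8. HNF4A was not analysed here. The study asked how gene expression changes over time with APRIL, a soluble protein of the tumour necrosis factor (TNF) ligand family. Its 4 arrays held total RNA of cells left untreated (0 h) or kept with 200 ng/ml APRIL for 2, 6 or 12 h, 1 array per time. Before treatment all cells, the untreated ones too, had been without serum, for 24 h by the series' design text and overnight by the protocol in the labels. No untreated array of a later time was used, so an effect of time alone cannot be told apart from one of APRIL.

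These proteins bind DNA, and most of them are known to switch on genes that make a cell a hepatocyte. FOXA1, FOXA2 and FOXA3 share a forkhead DNA-binding domain and are known as pioneer factors, since they can bind sites in closed chromatin. CEBPA, a leucine zipper protein, drives metabolic genes of the mature hepatocyte and restrains proliferation, and ONECUT1 (also called HNF6) acts in liver and bile duct development. NR5A2 (also called LRH-1) is a nuclear receptor that activates genes of bile acid synthesis. PROX1 is a homeodomain protein required for hepatoblast migration in the mouse embryo, and it is known as a corepressor of NR5A2 and HNF4A. The factors bind each other's promoters and form a network.

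Every value below is on the log2 scale. The deposited values were relative to each probe set's own median over the 4 arrays, so they show how a transcript varied and not how much of it there was. For that reason the labelled cell type could not be checked against the level of hepatocyte markers. A ratio is the difference of 2 arrays, and a gene's ratio is the median over its probe sets. Since each time has 1 array, the error of a difference cannot be estimated, and neither tests nor p-values are given. As yardsticks, the SD over the probe sets of a gene and the spread of all 19775 genes are given. At 2, 6 and 12 h the robust SD of all genes in their ratio over 0 h was 0.16, 0.20 and 0.24. The ratios over 0 h share the 0 h array. In a bulk sample, fewer cells that carry a transcript and less of it per cell cannot be told apart. The 18 spike-in probe sets are those of the controls bioB, bioC, bioD and cre. Their median ratios over 0 h were 0.012, 0.055 and -0.35 at 2, 6 and 12 h, against 0.016, 0.047 and 0.0100 for all genes. Ratios below compare a transcript with the bulk of the array. Those of 12 h would all be higher by the same amount if scaled to the spike-in RNAs. Values relative to the spike-in RNAs show this other scaling only. In them each array was centred on its own median over the spike-in probe sets, which is not the median ratio given above. At 6 h this took PROX1 from -0.93 to -1.01, a larger shift than the median spike-in ratio of 0.055. What lies behind the 12 h shift, and whether it reflects the RNA of the cells, was not tested.

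The promoters of 3 factors are shown because their genes are the factors read by a single probe set, CEBPA and ONECUT1 being lower at 6 h and FOXA3 higher at 12 h. The sequences are those of RefSeq (GRCh38.p14), and the promoter set used here held those of 5 of the 7 factors. Each runs 5′ to 3′ on the strand of the gene, from 250 bases before the annotated start to 50 after it. Capitals mark matches to the motifs searched, on either strand.
CEBPA promoter (chr19:33302485-33302784, minus strand): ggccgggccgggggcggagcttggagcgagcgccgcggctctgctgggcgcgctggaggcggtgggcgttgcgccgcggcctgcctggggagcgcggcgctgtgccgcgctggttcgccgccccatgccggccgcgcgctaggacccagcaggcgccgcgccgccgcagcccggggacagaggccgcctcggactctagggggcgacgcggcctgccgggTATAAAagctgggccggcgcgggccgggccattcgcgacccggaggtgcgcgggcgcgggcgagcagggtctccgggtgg
ONECUT1 promoter (chr15:52790287-52790586, minus strand): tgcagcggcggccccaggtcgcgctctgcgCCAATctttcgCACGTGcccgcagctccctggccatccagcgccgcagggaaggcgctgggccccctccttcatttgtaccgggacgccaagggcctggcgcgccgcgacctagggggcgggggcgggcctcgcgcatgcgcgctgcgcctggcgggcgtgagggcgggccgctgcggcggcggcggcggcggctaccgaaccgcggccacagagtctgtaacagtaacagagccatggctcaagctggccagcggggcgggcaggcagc
FOXA3 promoter (chr19:45864076-45864375, plus strand): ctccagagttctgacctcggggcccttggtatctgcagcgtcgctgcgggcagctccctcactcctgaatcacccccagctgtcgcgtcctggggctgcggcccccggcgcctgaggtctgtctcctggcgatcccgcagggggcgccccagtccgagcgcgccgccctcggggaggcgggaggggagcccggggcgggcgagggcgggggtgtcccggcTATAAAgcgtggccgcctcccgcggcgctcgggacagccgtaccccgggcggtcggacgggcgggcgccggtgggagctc

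The promoters of CEBPA and FOXA3 held the same match, a TATA box (TATAAA) on the gene's strand that begins 30 bases before the start. Of all 35116 promoter windows in this set, 11.5% held TATAAA on either strand. In ONECUT1 the matches were CCAAT, beginning at -220, and the E-box CACGTG, beginning at -209, found in 34.6% and 7.26% of all windows. All 3 windows were rich in G and C, with 80.7% in CEBPA, 75% in ONECUT1 and 76.3% in FOXA3, and the median of all windows was 58.7%. The other motifs searched on both strands had no match in these windows. They were the FOXA motifs TGTTTAC (3.42% of all windows) and TGTTTGC (3.89%), the C/EBP motif TTGCNNAA (10.5%), the ONECUT motifs ATCGAT (0.763%) and ATTGAT (6.26%), and AAGGTCA, known for NR5A2 (3.92%). Also searched were the HNF4 motif CAAAGTNCA (1.1%), the AP-1 motif TGACTCA (4.95%), the cyclic AMP response element TGACGTCA (1.85%) and the EGR motif GCGTGGGCG (0.795%). No 2 matches overlapped in the 3 windows. Of the promoters not printed, the FOXA1 window held TGTTTGC on the opposite strand, beginning at -235. NR5A2 has 2 annotated starts, of which the first had TGACTCA on the opposite strand at -158 and TATAAA on the opposite strand at -201, and the second had TGTTTAC on the opposite strand at -105. A match describes these letters only and shows no binding.

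PROX1 was lower at 6 h in each of its 4 probe sets and was partly back at 12 h. Probe set 207401_at, designed on the RefSeq mRNA, had values of 0.54, 0.16, -1.10 and -0.16 on the arrays of 0, 2, 6 and 12 h. Probe set 228656_at had 0.48, 0.37, -0.72 and -0.37 in this order of times. The 6 h array was lowest in both, by a wide step. Probe set 229376_at had 0.23, -0.23, -0.42 and 0.30 on these arrays, and 242119_at had 0.087, 0.053, -0.33 and -0.053. The 6 h array was lowest in these as well, but their range was narrower, and in 229376_at the 12 h array was the highest.

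As a gene, PROX1 had ratios over 0 h of -0.24 at 2 h (SD 0.21 over 4 probe sets), -0.93 at 6 h (SD 0.55) and -0.42 at 12 h (SD 0.44). All 4 probe sets were below 0 at 2 h, all 4 at 6 h and 3 at 12 h. The 6 h ratio, 1.90-fold lower, was the lowest of the 7 factors, and 0.551% of all genes were as far from 0. Between 6 h and 12 h PROX1 was at 0.53 (SD 0.31), with all 4 probe sets above 0. Relative to the spike-in RNAs PROX1 was at -1.01 at 6 h, just past 2-fold, and at -0.069 at 12 h. With the median spike-in ratio taken off instead, its 6 h ratio would fall short of 2-fold. PROX1-AS1, the antisense RNA beside the gene, was read by 1 probe set and did not follow this course. Its values on the 0, 2, 6 and 12 h arrays were -0.27, 0.23, 0.10 and -0.10.

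CEBPA was slightly higher at 2 h and lower at 6 and 12 h. Its single probe set, 204039_at, designed on the RefSeq mRNA, had values of 0.33, 0.68, -0.39 and -0.33 on the 0, 2, 6 and 12 h arrays. The 2 earlier arrays were both well above the 2 later ones. The ratio over 0 h was 0.34 at 2 h, -0.72 (1.65-fold lower) at 6 h and -0.66 (1.58-fold lower) at 12 h. At 2 h 6.56% of all genes were as far from 0, at 6 h 1.33% and at 12 h 6.06%. The step between 2 h and 6 h was -1.06 (2.09-fold lower). In this step 0.329% of all genes were past 2-fold lower, and of the 7 factors only CEBPA had a gene ratio past 2-fold. The CEBPA ratio is that of 1 probe set and not a median. Past 2-fold lower here too were PROX1 probe sets 207401_at (-1.26) and 228656_at (-1.09) and FOXA1 probe set 237086_at (-1.09). The gene medians of PROX1 and FOXA1 were -0.74 and -0.56. CEBPA and PROX1 had the widest ranges of gene values over the 4 arrays, 1.06 and 0.93. FOXA1 was next at 0.92. Relative to the spike-in RNAs CEBPA was at -0.80 at 6 h and -0.31 at 12 h, so that its 12 h ratio was no longer past 1.5-fold.

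CEBPB, a relative of CEBPA that is induced in acute-phase and stress responses, stood on the other side at 12 h. Its ratios over 0 h were 0.25, -0.43 and 0.72 at 2, 6 and 12 h, from 1 probe set. CEBPB and CEBPA were thus both higher than at 0 h at 2 h and both lower at 6 h, and at 12 h CEBPB alone of the pair was above 0. CEBPD, the third member of the family among the genes listed, was at 0.32, -0.25 and 0.37 at 2, 6 and 12 h.

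ONECUT1 was lowest at 6 h. Its probe set, 210745_at, had values of 0.22, 0.076, -0.31 and -0.076 on the 0, 2, 6 and 12 h arrays. The ratio over 0 h was -0.14 at 2 h, -0.53 (1.44-fold lower) at 6 h and -0.29 at 12 h. Relative to the spike-in RNAs it was at -0.61 at 6 h, past 1.5-fold, and turned to 0.061 at 12 h. At 6 h 3.99% of all genes were as far from 0, though the ONECUT1 ratio is that of 1 probe set and not a median. As with PROX1, CEBPA and FOXA2, the gene value was lowest on the 6 h array. ONECUT2, its paralog, was at 0.17, -0.090 and -0.43 at 2, 6 and 12 h.

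**Figure D1:**
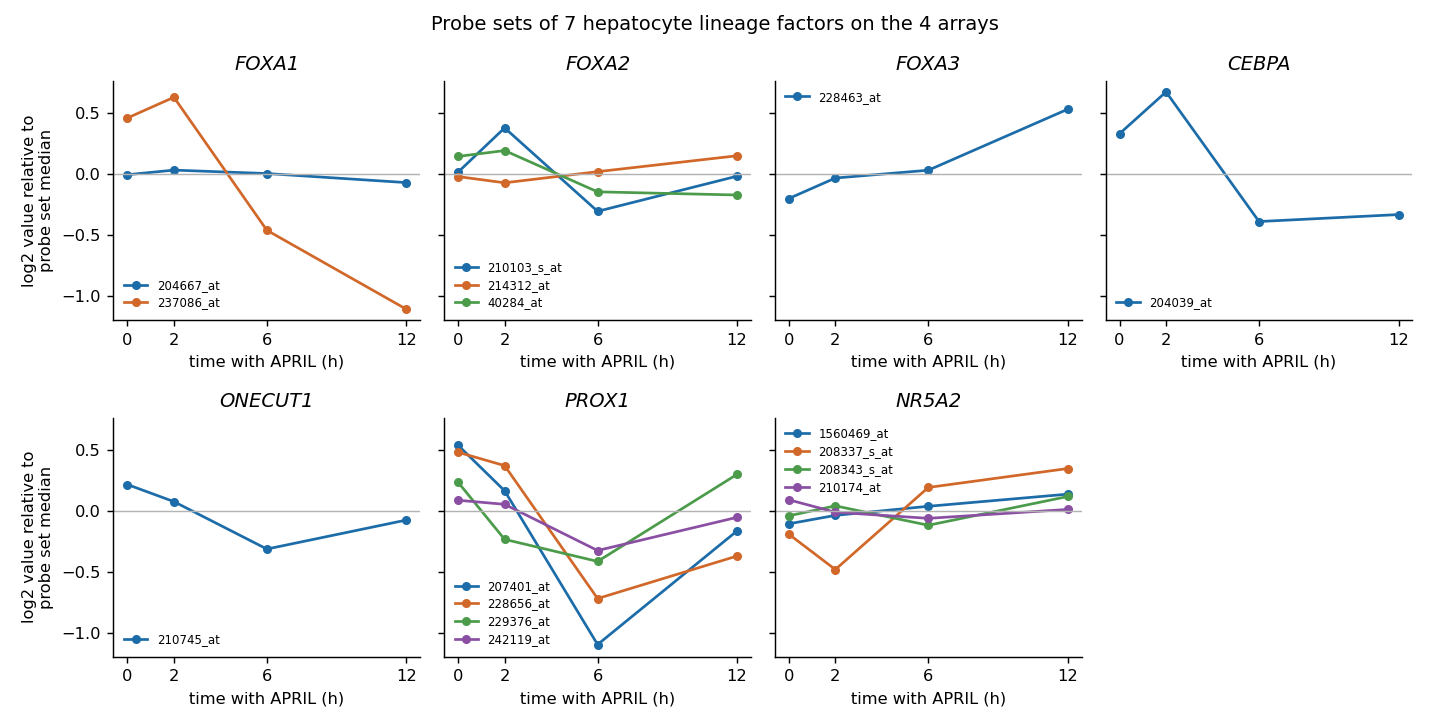
Log2 value relative to the probe set's median (vertical axis) against hours with APRIL (horizontal axis) for each of the 16 probe sets, 1 line per probe set and 1 panel per gene, with 1 array per point. All 4 PROX1 lines are lowest at 6 h, CEBPA and ONECUT1 are lowest at 6 h too, FOXA3 is highest at 12 h, and the 2 FOXA1 lines part widely.

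The 3 FOXA genes had different ratios over 0 h at 12 h. FOXA1 was read by 2 probe sets that disagreed in size. Probe set 204667_at, designed on the RefSeq mRNA, was flat, with values of -0.0048, 0.033, 0.0048 and -0.070 on the 0, 2, 6 and 12 h arrays. Probe set 237086_at, designed on another record, had 0.46, 0.63, -0.46 and -1.11, so that its later arrays were far below its earlier ones. Its ratio over 0 h was -0.92 at 6 h and -1.57 (2.97-fold lower) at 12 h. The gene's median, -0.46 at 6 h (SD 0.66 over 2 probe sets) and -0.82 at 12 h (SD 1.07), therefore rests on 237086_at. Which of the probe sets reads the transcript better was not tested. At 12 h FOXA1 was the lowest of the 7 factors, with 3.42% of all genes as far from 0. Relative to the spike-in RNAs it was at -0.54 at 6 h and -0.47 at 12 h, so that its 12 h ratio was no longer past 1.5-fold.

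FOXA2 was lowest at 6 h in its gene value, by a smaller step than PROX1, CEBPA or ONECUT1. Probe set 210103_s_at, which may match several transcripts, had values of 0.017, 0.38, -0.31 and -0.017 on the 0, 2, 6 and 12 h arrays. Probe set 40284_at had 0.15, 0.19, -0.15 and -0.17, and 214312_at had -0.020, -0.071, 0.020 and 0.15. The first pair was higher at 2 h than at 6 h, and the third ran the other way. The gene's ratio over 0 h was 0.048 at 2 h (SD 0.22 over 3 probe sets), -0.29 at 6 h (SD 0.20) and -0.033 at 12 h (SD 0.25), and the last turned to 0.32 relative to the spike-in RNAs. Without the probe set that may match several transcripts, FOXA2 was at -0.13 at 6 h.

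FOXA3, known in the mouse as the FOXA gene most expressed in adult liver, was higher at each later time. Its probe set, 228463_at, had values of -0.20, -0.032, 0.032 and 0.53 on the 0, 2, 6 and 12 h arrays. The 12 h array stood apart from the other 3. The ratio over 0 h was 0.17 at 2 h, 0.23 at 6 h and 0.73 (1.66-fold higher) at 12 h, where 4.64% of all genes were as far from 0. Relative to the spike-in RNAs it was at 1.09 at 12 h, past 2-fold. Side by side at 12 h, the FOXA genes had ratios of -0.82 for FOXA1, -0.033 for FOXA2 and 0.73 for FOXA3. The flat FOXA1 probe set was at -0.065 in this comparison.

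NR5A2 had a range of gene values over the arrays of 0.20, a median over probe sets that differed in course. Probe set 208337_s_at, designed on the RefSeq mRNA, had values of -0.19, -0.48, 0.19 and 0.35 on the 0, 2, 6 and 12 h arrays, a range of 0.83. The other 3, 1560469_at, 208343_s_at and 210174_at, stayed between -0.12 and 0.14 on all arrays. The gene's ratio over 0 h was -0.016 at 2 h (SD 0.17 over 4 probe sets), 0.033 at 6 h (SD 0.24) and 0.20 at 12 h (SD 0.26), within 1 SD between probe sets each time. The 6 h ratio turned to -0.047 relative to the spike-in RNAs, and the 12 h one became 0.55. At 12 h the highest probe set was at 0.54 over 0 h and the lowest at -0.079. Probe sets 208337_s_at and 208343_s_at may match several transcripts, and without them NR5A2 was at 0.082 at 12 h.

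**Figure D2:**
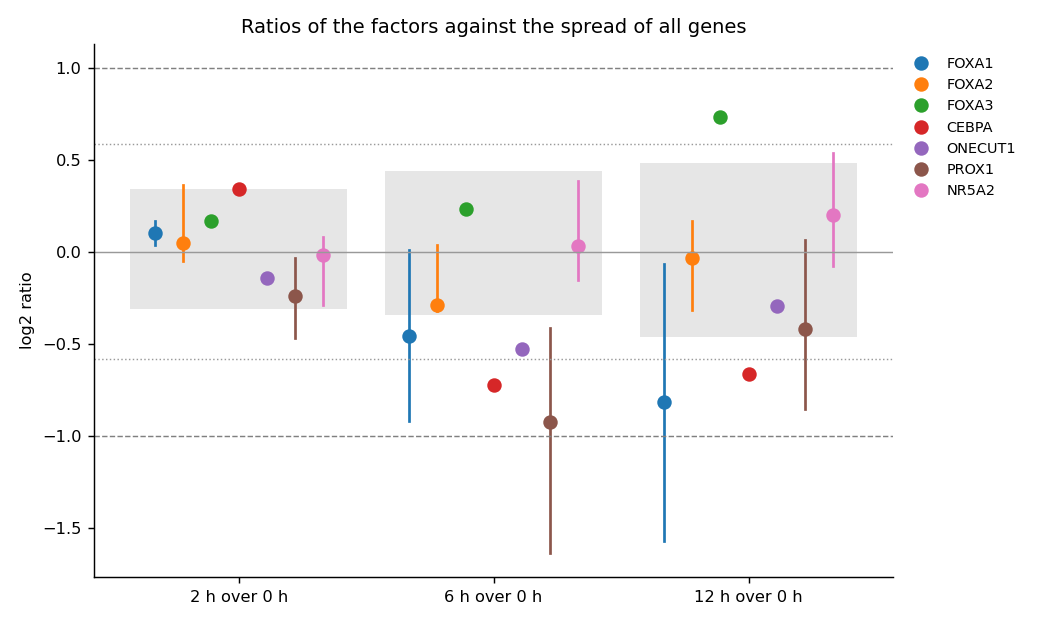
Log2 ratio over 0 h (vertical axis) of the 7 factors at 2, 6 and 12 h. Points are gene medians, vertical lines run between the lowest and highest probe set of genes with several, grey blocks cover 2 robust SDs of all genes on either side of their median, and dotted and dashed lines mark 1.5-fold and 2-fold. At 6 h PROX1 (-0.93), CEBPA (-0.72), ONECUT1 (-0.53) and FOXA1 (-0.46) lie below the block, and at 12 h FOXA3 (0.73) lies above it with CEBPA (-0.66) and FOXA1 (-0.82) below.

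As a group, the factors differed little from 0 h at 2 h and were mostly lower at 6 h. Their median ratio over 0 h at 2, 6 and 12 h was 0.048, -0.46 and -0.29, against 0.016, 0.047 and 0.0100 over all genes. At 6 h 5 of 7 were below 0, where 7857 of 19775 genes were, and at 12 h 5 of 7, where 9435 were. The median at 12 h turned to 0.061 relative to the spike-in RNAs. The median distance of a factor from 0, of either sign, at 2, 6 and 12 h was 0.14, 0.46 and 0.42, against 0.11, 0.14 and 0.16 over all genes.

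No gene ratio over 0 h passed 2-fold in any of the 7 factors, where 0.0455% of all genes did at 2 h, 0.384% at 6 h and 1.93% at 12 h. Past 1.5-fold, the lower limit used, there was no factor at 2 h, where 0.652% of all genes were past it in either direction. At 6 h CEBPA and PROX1 were past 1.5-fold lower, 2 of 7 factors, against 1.64% of all genes. At 12 h CEBPA and FOXA1 were past 1.5-fold lower, 2 of 7, against 3.7% of all genes, and FOXA3 was past 1.5-fold higher, 1 of 7, against 4.46%. Of the 16 probe sets, 2 passed 2-fold lower at 6 h, both of PROX1, against 0.937% of all probe sets with 1 symbol, and 1 of FOXA1 did at 12 h, against 1.57%. With so few genes these shares are coarse. Gene ratios are medians over probe sets, while CEBPA, ONECUT1 and FOXA3 have 1 probe set each, so their shares are not like for like. At 6 h 0.937% of probe sets with 1 symbol were past 2-fold lower, but 56 of 19775 genes were.

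Other regulators of liver genes, 19 read of 24 listed, had medians near 0 at each time. Their median ratio over 0 h was 0.086 at 2 h, 0.016 at 6 h and 0.085 at 12 h. No gene of this list was past 2-fold at any time, where 0.0455%, 0.384% and 1.93% of all genes were at 2, 6 and 12 h. At 12 h 3 of 19 were past 1.5-fold higher, against 4.46% of all genes. NR0B2 (also called SHP), a nuclear receptor without a DNA-binding domain that represses NR5A2 and HNF4A, was highest, at 0.25, 0.16 and 0.91 at 2, 6 and 12 h. NR2F1, an orphan nuclear receptor, was at -0.13, 0.016 and 0.77, and CEBPB is given above. Each of the 3 rests on 1 probe set.

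Coregulators, 9 read of 12 listed, had medians over 0 h of 0.050, -0.014 and 0.33 at 2, 6 and 12 h. At 12 h 7 of 9 were above 0, where 10217 of 19775 genes were, and 2 of 9 were past 1.5-fold higher, against 4.46% of all genes. CREBBP, a histone acetyltransferase, was at 0.66 at 12 h (SD 0.63 over 4 probe sets), NCOA1, a coactivator of nuclear receptors, at 0.64 (SD 0.22 over 4) and HDAC3, a histone deacetylase, at 0.46 from 1 probe set.

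Genes that lineage factors are known to activate in hepatocytes were read in 2 lists. The list of plasma proteins, 24 read of 25, had medians of 0.026, 0.089 and 0.038 at 2, 6 and 12 h. Albumin (ALB) was at 0.0043, 0.074 and 0.053 at these times and transthyretin (TTR), a classic FOXA target and the highest of the list at 6 and 12 h, at 0.041, 0.39 and 0.46. On the other side at 12 h were APOC3, an inhibitor of lipoprotein lipase, at -0.63 (SD 0.17 over 2 probe sets) and HPX, the haem carrier hemopexin, at -0.44. APOB, the protein that low-density lipoprotein is built around, was the only plasma protein gene past 2-fold, 1 of 24. Past 2-fold in either direction were 0.384% of all genes at 6 h and 1.93% at 12 h. APOB was at -1.60 at 6 h and -1.08 at 12 h, with probe sets far apart (SD 1.97 and 1.40 over 2).

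Hepatocyte enzymes, 17 read of 20, differed in sign between 6 and 12 h. Their medians were -0.027 at 2 h, 0.21 at 6 h and -0.12 at 12 h, with 14 of 17 above 0 at 6 h, where 11782 of 19775 genes were, and 12 of 17 below 0 at 12 h, where 9435 were. The 12 h median turned to 0.23 relative to the spike-in RNAs. BHMT, which remethylates homocysteine, was at -1.97 at 12 h, and OTC, a urea cycle enzyme, was at 1.05 at 6 h. Both rest on 1 probe set.

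CYP7A1 and CYP8B1, enzymes of bile acid synthesis whose promoters NR5A2 is known to bind, took different courses. CYP7A1, the rate-limiting enzyme, was at -0.66 at 2 h, 1.38 at 6 h and -0.055 at 12 h over 0 h. CYP8B1, which makes the cholic acid branch, was at -0.27, -0.33 and -1.79 at these times. CYP7A1 was highest on the array where PROX1 was lowest, and CYP8B1 was lowest on the array where NR0B2 was highest, while NR5A2 was at -0.016, 0.033 and 0.20 at 2, 6 and 12 h. These are courses over 4 arrays, each enzyme is read by 1 probe set, and any link between them was not tested.

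**Figure D3:**
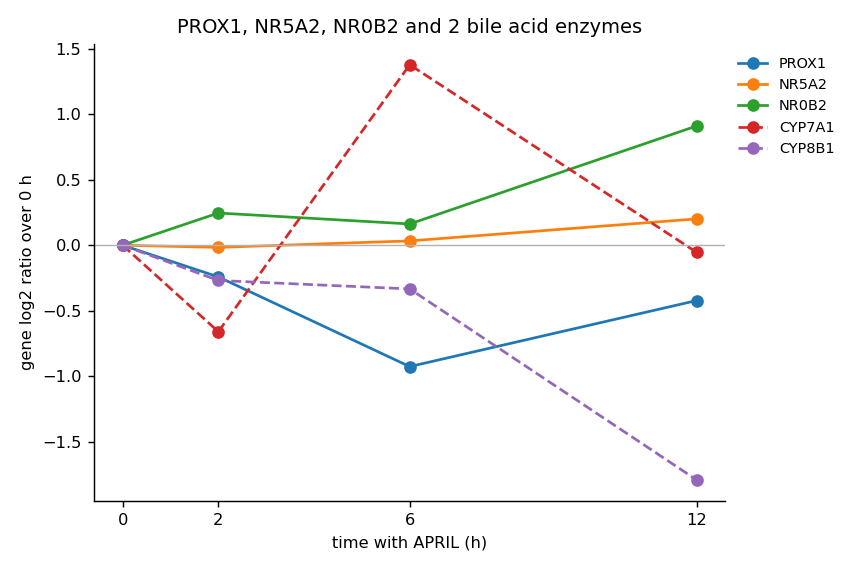
Gene log2 ratio over 0 h (vertical axis) against hours with APRIL (horizontal axis) for PROX1, NR5A2, NR0B2 (solid lines) and the enzymes CYP7A1 and CYP8B1 (dashed lines), 1 array per point and no replicates. At 6 h CYP7A1 is at 1.38 and PROX1 at -0.93, and at 12 h NR0B2 is at 0.91 and CYP8B1 at -1.79.

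Markers of other cell types moved little as groups. The bile duct and progenitor list, 11 read of 12, had medians of -0.095, -0.050 and -0.0051 at 2, 6 and 12 h. At 12 h 1 of 11 was past 1.5-fold higher, against 4.46% of all genes, and 2 of 11 were past 1.5-fold lower, against 3.7%. The first was PROM1, a progenitor surface protein, at 0.78 from 1 probe set, and the others were SPP1 (osteopontin), at -0.64 (SD 0.21 over 2 probe sets), and ANXA4. ANXA4, an annexin found in bile duct epithelium, was at -0.20, -0.74 and -1.37, the last with SD 0.16 over 2 probe sets. It was the only one past 2-fold, 1 of 11 at 12 h, against 1.93% of all genes in either direction. The mesenchymal list, 12 read of 12, had medians of 0.087, 0.057 and 0.044. In it the repressor SNAI2 was at -0.82 and the repressor ZEB1 at 0.68 (SD 0.50 over 4 probe sets) at 12 h, while TWIST1 was at 0.36 and vimentin (VIM) at -0.11.

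Endothelial markers, 8 read of 8, had medians of -0.057, 0.086 and -0.14 at 2, 6 and 12 h, with no gene past 1.5-fold. The largest at 12 h were PECAM1 at -0.30, STAB2 at -0.27 and VWF at -0.18. Immune markers, 6 read of 8, had medians of -0.026, 0.047 and 0.016, also with none past 1.5-fold, and LYZ at -0.16, CD3E at 0.096 and PTPRC at -0.064 at 12 h. Of all 19775 genes, 61 were past 1.5-fold higher and 68 lower at 2 h, 227 and 324 at 6 h, and 881 and 731 at 12 h. In lists this small, none past 1.5-fold is near these shares and says little about the markers. Without levels, whether any of these markers is at 0 in these cells cannot be read from the values, and their part in the courses of the lineage factors was not tested.

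**Figure D4:**
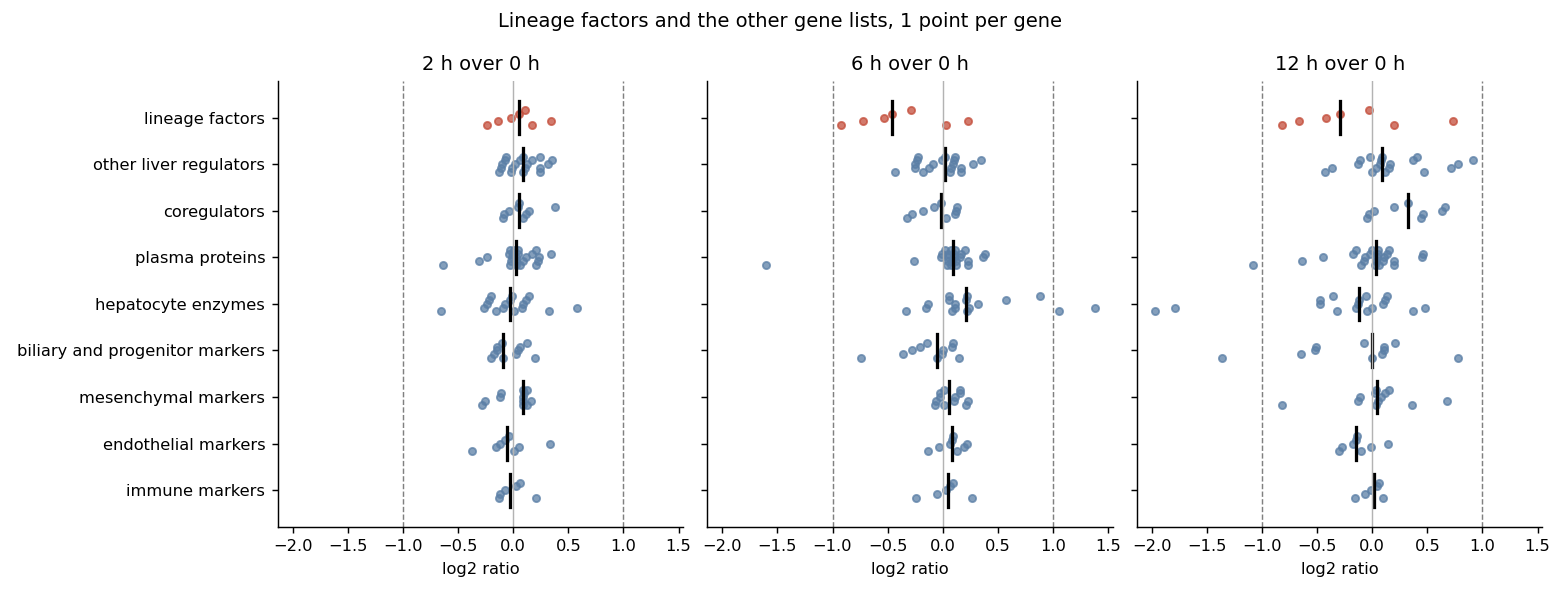
Log2 ratio over 0 h (horizontal axis) of each gene read in the lineage factors (red) and in 8 other lists (blue), at 2, 6 and 12 h, with 1 point per gene, black bars at the list medians and dashed lines at 2-fold. At 6 h the lineage factors have a median of -0.46, and the medians of the other lists lie between -0.050 and 0.21.

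For the 2 factors with the widest ranges, the genes with the most similar course were sought among the 4171 other genes with 2 or more probe sets all on 1 side of 0 for 6 h over 0 h. Likeness was the root mean square difference of gene values over the 4 arrays, each gene taken relative to its own mean. Nearest to PROX1 was CXorf38, with a difference of 0.045, followed by STRAP at 0.070 and FUBP3 at 0.074. Their ratios over 0 h at 6 h were -0.85, -0.73 and -0.78. Nearest to CEBPA were GFOD1 at 0.062, DPH6 at 0.072 and PLPP3 at 0.098, with ratios over 0 h at 6 h of -0.84, -1.10 and -0.76. With 4 arrays and this many candidates, close courses are easily found, and no test was made.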

How the data were processed

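Total RNA of HepG2 cells was measured on 4 arrays. The deposited log2 values were made by the authors with RMA (version not given), per the submitters' processing notes. The median of each of the 54675 probe sets over the arrays was 0 within 1e-06. The centring software, the log base and the direction of the values are not given in the sources used here. RMA's own scale, base 2, was assumed, with higher values meaning more transcript. The medians of the deposited columns were -0.0050, 0, 0.011 and -0.0043 for 0, 2, 6 and 12 h.

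Symbols of the platform annotation were updated through the gene identifier to RefSeq (GRCh38.p14, used for names and promoters). Of the probe sets, 41091 had 1 symbol and 1801 had several, and the first gave 19775 genes. Log2 ratios, medians over probe sets, counts past 2-fold and 1.5-fold and motif matches were computed in Python 3.11.15 with pandas 2.3.3 and numpy 2.4.6. The calculation of the ratios was run on simulated data with known shifts at 12 h. That run checks the calculation only and not the ratios reported here. Of 121 entries in 8 other lists, 106 were read. The other entries are not analysed here.

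The factors, lists and rules were chosen with earlier results of these data known. Named are all factors, and of each list the genes past 2-fold over 0 h or else the 3 farthest from 0 at 12 h, and the 3 genes nearest in course to the 2 factors of widest range. CEBPD, ONECUT2, ALB, TTR, APOC3, HPX, SPP1, PROM1, VIM and PROX1-AS1 were added for their role or size after their values were seen. The number of arrays limits the precision, and the alternatives were 2 other array scalings, 3 other choices of probe sets and another reference.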

Additional observations from a re-analysis of the deposited data

Results flagged for a closer look

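CEBPA lay on opposite sides of 0 h at different times, each time by more than 2 robust SDs of all genes. It was at 0.34 for 2 h over 0 h, at -0.72 for 6 h over 0 h and at -0.66 for 12 h over 0 h. The 2 h ratio was only just past this limit, with a robust SD of 0.16. Relative to the spike-in RNAs the 12 h ratio was -0.31, within 2 robust SDs of 0.24. With 1 array per time the difference between these times was not tested, and all 3 ratios share the 0 h array and 1 probe set.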

How the results depend on the processing

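No paired analysis was possible because each time has 1 array. A value counts as moved here if it shifted by 0.16 or more, the robust SD of all genes for 2 h over 0 h, and a count if it changed by over 1.5 times. A count of factors that went from 2 to 3 thus did not count as moved. Of 126 ratios of single factors under the 6 alternatives, 99 did not move and 27 did, of 162 medians 148 did not and 14 did, and of 36 counts 30 did not and 6 did. Many of the unmoved ratios could not move, so this tally is no measure of stability. CEBPA, ONECUT1 and FOXA3 have 1 probe set each, which the 3 other choices of probe sets leave as it is. No ratio past 1.5-fold changed sign. Centring each array on its median, or taking the mean over probe sets, moved none of these. The medians of the deposited columns lay between -0.0050 and 0.011, so the first could not shift a ratio by 0.16. The mean equals the median for a gene with 1 or 2 probe sets. Centring on the spike-in RNAs raises every 12 h ratio alike, and it took the 12 h median of the lineage factors to 0.061. The other 12 h medians under it were 0.44 for liver regulators, 0.68 for coregulators, 0.39 for plasma proteins, 0.23 for hepatocyte enzymes, 0.35 for bile duct and progenitor, 0.40 for mesenchymal, 0.21 for endothelial and 0.37 for immune markers. Under it 1 factor was past 2-fold at 6 h (PROX1, just past it at -1.01). At 6 h 3 factors were past 1.5-fold under it, with ONECUT1 added at -0.61. At 12 h FOXA3 was the 1 factor past both 2-fold and 1.5-fold. Taking per gene the probe set that varied most, 1 factor was past 2-fold at 6 h (PROX1, at -1.64) and 1 at 12 h (FOXA1, at -1.57), and the 12 h medians were 0.53 for coregulators and -0.24 for bile duct and progenitor markers. Set against the mean of the other 3, the factors' medians were 0.25 at 2 h, -0.22 at 6 h and -0.047 at 12 h, and 1 factor was past 1.5-fold at 2 h. That mean holds the later arrays, so a factor low on them is raised at 2 h by construction.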
